A study of Mus musculus with 15 samples.

Results

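Glutathione synthesis and the targets of NRF2 were followed through 9 genes in the livers of mice on 3 diets. The genes were found by symbol among the 23420 gene symbols counted in each library, all 9 were present, and all 9 were among the 12193 genes with enough counts to be tested. Ordered by role they are Nfe2l2, which encodes the transcription factor NRF2, the glutathione synthesis genes Gclc, Gclm and Gss, the reductases Gsr and Txnrd1 with Srxn1, and the quinone and haem enzymes Nqo1 and Hmox1. The mice were males of the inbred strain C57Bl/6J, and the study as a whole concerned fatty liver and the handling of the solvent tetrachloroethylene. PolyA RNA of the pulverized left lobe was sequenced, with 5 libraries for each diet. The MCD diet held 31% fat and lacked methionine, choline and folate, the HFD diet held 31% fat, and the BD (base) diet held 4% fat. All 15 libraries were labelled as liver taken 24 h after the vehicle, 5% Alkmauls El-620 (an emulsifier) in saline, and no liver exposed to the solvent was used. The sources used here give neither the length of feeding nor the age of the mice. They also do not tie libraries to separate animals, so the p-values describe the spread among libraries, which may be partly technical.

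Glutathione is a tripeptide of glutamate, cysteine and glycine that serves as the main soluble thiol of hepatocytes. Glutamate-cysteine ligase, a catalytic subunit (GCLC) with a modifier subunit (GCLM), makes gamma-glutamylcysteine, and glutathione synthetase (GSS) adds glycine. NRF2 is held low by KEAP1, which presents it for degradation, and oxidants or electrophiles that modify KEAP1 let NRF2 enter the nucleus, pair with a small MAF protein and bind antioxidant response elements. NRF2 is therefore controlled mainly at the protein level, which RNA counts do not measure. A liver on a diet without methionine and choline accumulates fat, and methionine is also a source of the cysteine used for glutathione.

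The libraries held 9146731 to 23131089 gene counts for MCD, 4367774 to 20892987 for HFD and 3704642 to 22338718 for BD. Markers of hepatocytes summed to 137100 to 184800 CPM per library (CPM, the gene's reads relative to the library's size after TMM scaling), and neutrophil markers to at most 2.91 CPM. HFD replicate 2 stood apart: on the first principal component, which held 37.1% of the variance, it lay at 28.4, among the MCD libraries (15.6 to 39.4), while the other HFD libraries lay at -12.7 to -0.415. Its summed cell cycle genes, at 32.0 CPM, were in contrast below the MCD libraries (54.7 to 74.9 CPM) and the other HFD libraries (36.8 to 39.8 CPM). Whether its diet label is right was not tested, so each HFD value below rests on that label. Of the genes followed here, values that move most without this library are also given without it. For the listed genes around them only some are, and others given only with it may move too. The sample titles number MCD and HFD livers in 1 run and BD livers in another, so a batch that followed this numbering and the base diet cannot be told apart. Non-unique alignments per gene count, which entered no gene, were 1.19 to 1.66 in MCD, 1.15 to 2.53 in HFD and 1.49 to 2.80 in BD.

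The stretches of 250 bases upstream of the start sites were searched for the core of the antioxidant response element, which NRF2 binds, and for the AP-1 core that resembles it. RefSeq promoter entries (GRCm38.p6) were at hand for 6 of the 9 members, with 3 start sites for Txnrd1 and 1 for each of the others. Those of Gclc, Gsr and Hmox1 were not used here. Printed are 3 genes that rose in MCD against BD livers. Nfe2l2 had the antioxidant response element core, Srxn1 the AP-1 core, in part with GC after it, and Gss neither. Also printed is a pair with the antioxidant response element core that did not pass the test (Gclm, Txnrd1). They are given 5′ to 3′ on the strand of the gene, with matches in capitals, also where the match reads on the opposite strand (Gclm, Txnrd1).
Nfe2l2, chr2:75704664-75704913, minus strand: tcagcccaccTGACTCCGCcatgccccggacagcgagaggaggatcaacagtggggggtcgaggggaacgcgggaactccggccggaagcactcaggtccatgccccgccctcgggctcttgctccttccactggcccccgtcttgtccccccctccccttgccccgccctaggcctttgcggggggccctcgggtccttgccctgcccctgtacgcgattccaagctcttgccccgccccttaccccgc
Srxn1, chr2:152105274-152105523, plus strand: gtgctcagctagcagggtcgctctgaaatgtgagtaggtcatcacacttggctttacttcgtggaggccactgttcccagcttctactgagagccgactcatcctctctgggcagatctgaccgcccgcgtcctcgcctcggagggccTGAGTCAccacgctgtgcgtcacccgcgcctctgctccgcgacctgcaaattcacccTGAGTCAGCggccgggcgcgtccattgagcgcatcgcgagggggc
Gss, chr2:155592811-155593060, minus strand: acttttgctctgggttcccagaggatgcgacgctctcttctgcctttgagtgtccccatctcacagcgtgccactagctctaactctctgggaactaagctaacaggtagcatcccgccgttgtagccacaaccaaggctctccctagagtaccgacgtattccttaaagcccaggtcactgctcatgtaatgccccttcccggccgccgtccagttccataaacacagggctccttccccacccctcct
Gclm, chr3:122245307-122245556, plus strand: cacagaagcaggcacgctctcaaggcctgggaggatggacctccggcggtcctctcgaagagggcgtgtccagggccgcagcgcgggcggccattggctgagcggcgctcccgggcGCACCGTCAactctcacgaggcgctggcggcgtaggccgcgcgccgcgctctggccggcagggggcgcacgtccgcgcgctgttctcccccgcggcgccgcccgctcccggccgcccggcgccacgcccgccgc
Txnrd1, second start site, chr10:82858956-82859205, plus strand: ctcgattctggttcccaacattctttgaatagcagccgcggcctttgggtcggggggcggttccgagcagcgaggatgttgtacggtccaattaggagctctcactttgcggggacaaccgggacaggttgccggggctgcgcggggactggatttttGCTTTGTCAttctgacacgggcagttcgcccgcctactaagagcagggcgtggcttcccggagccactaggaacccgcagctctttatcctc
The capitals mark the antioxidant response element core TGACNNNGC or the AP-1 core TGANTCA, searched on both strands, where N is any base. A stretch TGANTCAGC holds the AP-1 core followed by GC, and where its N is C it is also a match to TGACNNNGC. Srxn1 had the AP-1 core at a pair of places, 102 to 96 and 45 to 39 bases upstream of the start. The second is the longer TGAGTCAGC, and 1.02% of the 32851 promoter entries of the same length hold TGANTCAGC. TGAGTCAGC differs from TGACNNNGC only in the base after TGA, and whether NRF2 binds it was not tested. TGACNNNGC was found upstream of Gclm (from 134 bases before the start), of Txnrd1 at its second start site (from 92 bases) and of Nfe2l2 (from 240 bases). By comparison 10.2% of all entries hold TGACNNNGC and 6.75% hold TGANTCA. Neither was found in the entries of Gss and Nqo1. A match describes letters, not a bound site, and elements farther upstream were not searched.

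Levels of different genes are compared as CPM per kb of exon (union of exons in GENCODE M21). In BD livers Gclc was the highest of the members at 156 ± 23.4 CPM per kb (SD, n = 5). Gsr (33.3 ± 2.05), Nfe2l2 (28.4 ± 3.83), Gclm (28.2 ± 1.99) and Txnrd1 (24.6 ± 2.71 CPM per kb) followed, and the libraries of each neighbour in that order overlapped. Srxn1 (18.9 ± 2.14) overlapped Txnrd1 and lay above Hmox1 in every library, and Hmox1 (10.6 to 13.9) overlapped Gss (8.40 to 13.6 CPM per kb). Nqo1 was lowest in BD livers at 5.82 ± 0.439 CPM per kb, below every library of Gss. In MCD livers the order of mean levels was Gclc (167 ± 25.0), Nfe2l2 (39.3 ± 3.84), Srxn1 (35.7 ± 9.13), Gsr (29.3 ± 1.78), Gclm (27.2 ± 1.76), Txnrd1 (24.0 ± 1.16), Hmox1 (22.9 ± 2.11), Gss (17.4 ± 1.26) and Nqo1 (7.94 ± 2.45 CPM per kb). The place of Srxn1 is not settled there, since its MCD libraries (22.3 to 46.1 CPM per kb) overlapped those of Nfe2l2, Gsr, Gclm, Txnrd1 and Hmox1. In HFD livers Gclc (106 to 189) and Nqo1 (2.69 to 7.90 CPM per kb) were again first and last.

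In MCD against BD livers 4 of the 9 genes rose: Nfe2l2, Gss, Hmox1 and Srxn1. None of the 9 fell in edgeR, DESeq2 or limma-voom, and 1 was lower at an unadjusted p under 0.05. Over all genes tested 12.8% rose and 8.64% fell in that comparison, 21.4% in all. A gene was called when its adjusted p was under 0.05 in edgeR's quasi-likelihood test with Benjamini-Hochberg adjustment over all 12193 genes, and every adjusted p below comes from that test unless another tool is named. All 4 also had every MCD library above every BD library, against 9.32% of all genes with no overlap upward and 6.07% downward. The median log2 fold change of the 9 was 0.45, against -0.03 over all genes. In HFD against BD livers Hmox1 rose and Gsr fell, where 3.65% of all genes rose and 3.27% fell (6.92% in all), and the members' median was -0.04 (all genes -0.0080). Gsr alone had no overlap there, all HFD libraries being below all BD libraries (3.56% of all genes, and 3.49% upward). In MCD against HFD livers 1 gene, Gss, was higher, where 2.22% of all genes were higher and 0.927% lower (3.15% in all), and the members' median was 0.36 (all genes -0.0033). No member had MCD and HFD libraries fully apart, which 2.49% of all genes had upward and 1.83% downward. Without TMM scaling the median of all genes moved by 0.14 in MCD against BD, and 2308 of 2820 calls were higher in place of 1557 of 2610. In HFD against BD it was 589 of 886 in place of 445 of 844, and in MCD against HFD 411 of 478 in place of 271 of 384. The members called against BD, and their directions, were counted alike under both scalings (4 higher in MCD, and 1 higher and 1 lower in HFD).

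**Figure D1:**
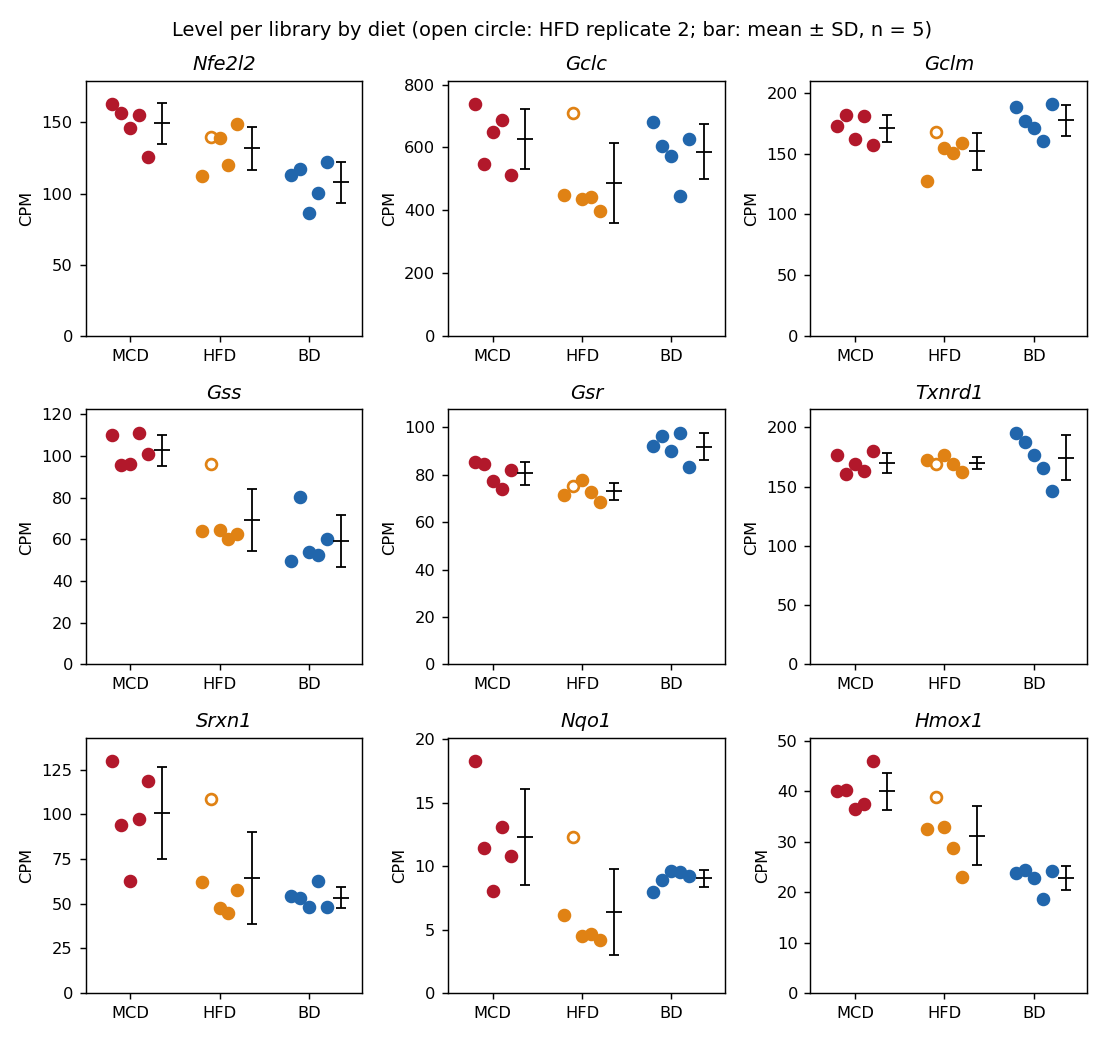
CPM (vertical axis, from 0) of each of the 9 genes in the 5 libraries of each diet, MCD, HFD and BD, with the mean ± SD as a bar beside the points and HFD replicate 2 as an open circle. Nfe2l2, Gss, Hmox1 and Srxn1 stand higher in all MCD libraries than in any BD library, and the open circle is far above the other HFD libraries for Gclc, Gss, Srxn1 and Nqo1.

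Nfe2l2 (chromosome 2, 75675513 to 75704641, minus strand) carried more RNA in MCD livers. It had 163, 157, 146, 155 and 125 CPM in the MCD libraries, 112, 139, 139, 120 and 149 CPM in the HFD libraries and 113, 117, 86.0, 100.4 and 122 CPM in the BD libraries. All MCD values were above all BD values, and the HFD values overlapped both. Nfe2l2 rose in MCD against BD livers with a log2 fold change of 0.47 ± 0.11 (SE, 5 libraries each, adjusted p = 0.00414). In HFD against BD livers the log2 difference of Nfe2l2 was 0.29 (95% interval 0.06 to 0.52, adjusted p = 0.129), and in MCD against HFD livers 0.18 (95% interval -0.04 to 0.41, adjusted p = 0.360). Neither of these passed the test.

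Neither subunit gene of the first enzyme of glutathione synthesis was called in any comparison with all 15 libraries in the fit. Gclc (chromosome 9, 77754535 to 77794485) had 738, 549, 651, 687 and 512.5 CPM in the MCD libraries, 448, 711, 437, 443 and 398 CPM in the HFD libraries and 681, 604, 574, 445 and 628 CPM in the BD libraries. MCD and BD libraries overlapped, HFD replicate 2 lay within the MCD range, and HFD replicates 3, 4 and 5 were below every MCD and BD library. The log2 difference of Gclc was 0.10 in MCD against BD (95% interval -0.22 to 0.42, adjusted p = 0.693), -0.27 in HFD against BD (95% interval -0.59 to 0.05, adjusted p = 0.359) and 0.36 in MCD against HFD livers (95% interval 0.04 to 0.68, adjusted p = 0.186). Gclm (chromosome 3, 122245557 to 122270732), the modifier subunit, averaged 171 ± 11.1 CPM in MCD, 152 ± 15.1 CPM in HFD and 177 ± 12.5 CPM in BD livers (SD, n = 5 each). Its log2 differences were -0.05 (95% interval -0.23 to 0.13), -0.22 (95% interval -0.41 to -0.04) and 0.17 (95% interval -0.01 to 0.35) for MCD against BD, HFD against BD and MCD against HFD, with adjusted p of 0.71, 0.145 and 0.281, so Gclm was called in no comparison. Of its exonic bases 244 are shared with the pseudogene Gm6061 on the same strand and 296 with Gm17494 on the opposite strand. Reads on these shared bases may have been set aside as ambiguous, and the counting mode is not known.

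Because both subunits belong to a single enzyme, their counts were also compared within each library, which removes the library size. The ratio of Gclm to Gclc counts was 0.234, 0.332, 0.250, 0.264 and 0.307 in the MCD libraries, 0.285, 0.237, 0.355, 0.341 and 0.398 in the HFD libraries and 0.277, 0.293, 0.298, 0.361 and 0.304 in the BD libraries. The diets overlapped, and HFD replicate 2 had the lowest ratio of its diet. The mean log2 ratio was -1.86 ± 0.21 in MCD, -1.65 ± 0.29 in HFD and -1.71 ± 0.14 in BD livers (SD, n = 5). The difference was -0.15 for MCD minus BD, 0.06 for HFD minus BD and -0.21 for MCD minus HFD (two-sided exact permutation p = 0.230, 0.714 and 0.222, adjusted over the 3 pairs 0.345, 0.714 and 0.345). The smallest p that 5 against 5 libraries allow is 0.00794.

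Gss, the second enzyme of the pathway (chromosome 2, 155563181 to 155592810, minus strand), was the synthesis gene called with all 15 libraries in the fit. It had 110.0, 95.6, 96.0, 111 and 101 CPM in the MCD libraries, 64.2, 96.0, 64.5, 60.2 and 62.4 CPM in the HFD libraries and 49.7, 80.4, 53.8, 52.3 and 60.1 CPM in the BD libraries. All MCD libraries were above all BD libraries, HFD replicate 2 lay within the MCD range, and BD replicate 2 was the highest of its diet. Gss rose with a log2 fold change of 0.79 ± 0.14 (SE), a fold of 1.73, in MCD against BD livers (adjusted p = 4.99e-04), and in MCD against HFD livers by 0.56 ± 0.14 (adjusted p = 0.0329). In HFD against BD livers the log2 difference was 0.22 (95% interval -0.07 to 0.51, adjusted p = 0.404), and 0.085 without HFD replicate 2. The call against HFD was lost when MCD replicate 1, 4 or 5 was left out (adjusted p 0.0573 to 0.0839), when HFD replicate 1, 3, 4 or 5 was left out (adjusted p 0.0737 to 0.107) and once non-unique alignments entered as a covariate (0.130), and stood without HFD replicate 2 (adjusted p = 0.00113). Of the exonic bases of Gss, 395 also belong to exons of Acss2 on the opposite strand, which cannot be told apart from Gss if reads were counted without strand.

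The reductases and sulfiredoxin divided. Gsr (chromosome 8, 33652523 to 33698163), which reduces oxidised glutathione with NADPH, had 85.2, 84.6, 77.5, 73.8 and 82.0 CPM in the MCD libraries, 71.2, 75.2, 77.7, 72.5 and 68.5 CPM in the HFD libraries and 92.0, 96.1, 90.0, 97.7 and 83.3 CPM in the BD libraries. The HFD libraries, replicate 2 included, were all below the BD libraries, and the MCD libraries lay between, overlapping both. Gsr fell by 0.33 ± 0.08 log2 units (SE) in HFD against BD livers (adjusted p = 0.0111), and this was the member called in HFD against BD livers under every alternative run except the threshold of 0.01. In MCD against BD livers its log2 difference was -0.19 (95% interval -0.35 to -0.03, adjusted p = 0.0867), which passed without BD replicate 5 (adjusted p = 0.0430). Txnrd1 (chromosome 10, 82833951 to 82897712), cytosolic thioredoxin reductase, was the steadiest member: it lay at 161 to 180.0 CPM in MCD, 163 to 177 CPM in HFD and 147 to 196 CPM in BD livers. Its log2 differences were -0.04 (95% interval -0.21 to 0.14) for MCD against BD, -0.04 (95% interval -0.21 to 0.14) for HFD against BD and 0.00055 (95% interval -0.17 to 0.17) for MCD against HFD, with adjusted p of 0.799, 0.871 and 0.997. Those near-zero differences changed sign under some scalings, among them 0.11 in MCD against BD without TMM factors, and were called under no setting.

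Srxn1 (chromosome 2, 152105516 to 152111376), the sulfiredoxin that repairs overoxidised peroxiredoxins, had the largest fitted change of the 9 in MCD against BD livers. It had 130, 94.1, 63.0, 97.4 and 119 CPM in the MCD libraries, 62.4, 109, 47.6, 45.0 and 57.6 CPM in the HFD libraries and 54.5, 53.4, 47.9, 62.8 and 48.3 CPM in the BD libraries. MCD replicate 3, the lowest of its diet, was only just above the highest BD library (62.97 against 62.83 CPM), and HFD replicate 2 lay among the MCD libraries. Srxn1 rose with a log2 fold change of 0.92 ± 0.23 (SE), a fold of 1.89, in MCD against BD livers (adjusted p = 0.00842). Its log2 difference was 0.28 in HFD against BD (95% interval -0.21 to 0.76, adjusted p = 0.561; 0.0062 without HFD replicate 2) and 0.64 in MCD against HFD livers (SE 0.22, adjusted p = 0.124).

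**Figure D2:**
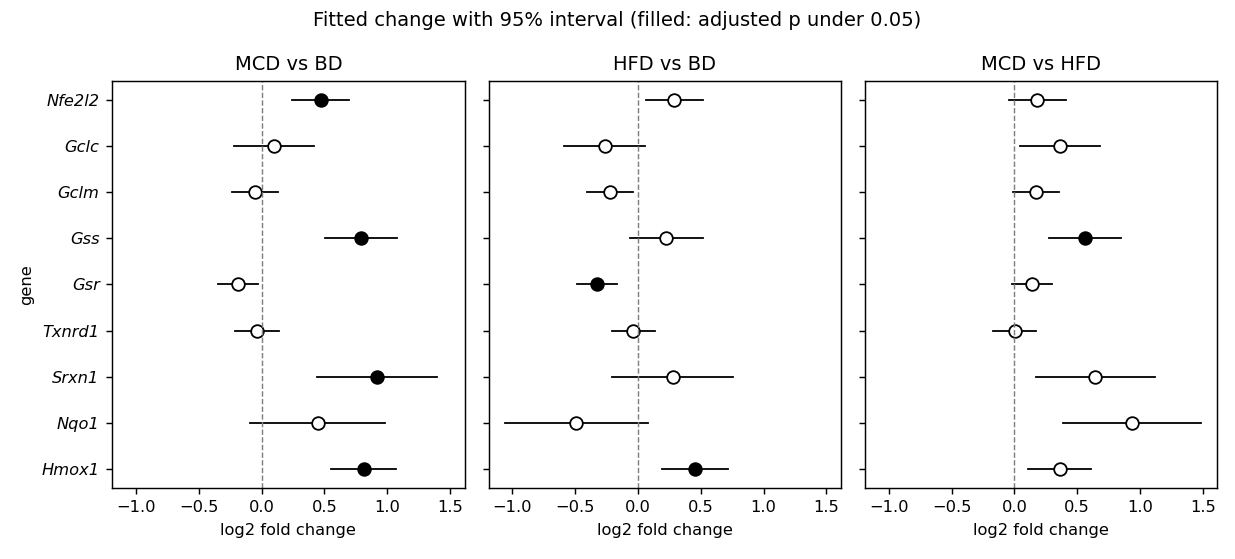
Fitted log2 fold change (horizontal axis) of each gene with its 95% interval, for MCD against BD, HFD against BD and MCD against HFD, filled where the adjusted p was under 0.05. In MCD against BD the filled points are Nfe2l2 (0.47), Gss (0.79), Srxn1 (0.92) and Hmox1 (0.81), while Txnrd1 lies within 0.04 of 0 in all 3 panels.

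Nqo1 (chromosome 8, 107388225 to 107403206, minus strand), a quinone reductase often used as a readout of NRF2, was the least abundant member and was called in no comparison. It had 18.3, 11.4, 8.05, 13.1 and 10.8 CPM in the MCD libraries, 6.16, 12.3, 4.50, 4.68 and 4.18 CPM in the HFD libraries and 7.95, 8.88, 9.66, 9.52 and 9.20 CPM in the BD libraries, and its lowest count was 19 (HFD replicate 3). The BD libraries were close together, 4 of the 5 MCD libraries were above them with replicate 3 inside their range, and 4 of the 5 HFD libraries were below them. The log2 difference of Nqo1 was 0.45 in MCD against BD (95% interval -0.09 to 0.98, adjusted p = 0.237), -0.49 in HFD against BD (95% interval -1.06 to 0.08, adjusted p = 0.336) and 0.94 in MCD against HFD livers (95% interval 0.39 to 1.49, adjusted p = 0.0575). The last was called by DESeq2 (adjusted p = 0.0135) and by limma-voom (adjusted p = 0.0326).

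Hmox1 (chromosome 8, 75093621 to 75100589), haem oxygenase 1, which splits haem to biliverdin, carbon monoxide and iron, was the member called on both high-fat diets. It had 40.0, 40.3, 36.5, 37.5 and 46.0 CPM in the MCD libraries, 32.5, 38.8, 32.9, 28.8 and 22.9 CPM in the HFD libraries and 23.9, 24.4, 22.9, 18.6 and 24.2 CPM in the BD libraries. MCD and BD libraries were fully apart, and HFD replicate 5 lay within the BD range. Hmox1 rose with a log2 fold change of 0.81 ± 0.12 (SE), a fold of 1.76, in MCD against BD livers (adjusted p = 1.68e-04), and in HFD against BD livers by 0.45 ± 0.12 (adjusted p = 0.0325). The HFD call was lost by limma-voom (adjusted p = 0.0538) and with only those diets in the fit (adjusted p = 0.0530). It was also lost when HFD replicate 1, 2 or 3 was left out (adjusted p 0.0611 to 0.0888) and when BD replicate 1, 3 or 4 was left out (adjusted p 0.0502 to 0.0936). In all, 9 of 23 alternatives lost the HFD call, with a highest adjusted p of 0.108. In MCD against HFD livers the log2 difference was 0.36 (95% interval 0.11 to 0.61, adjusted p = 0.106).

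Macrophages express Hmox1 when they clear red cells. The summed level of 15 macrophage markers was 578 to 740 CPM in MCD, 422 to 611 CPM in HFD and 277 to 490 CPM in BD livers, and the highest HFD value was that of replicate 2. MCD libraries were all above the BD libraries, and HFD libraries overlapped them. Of these markers 13 of 15 rose in MCD against BD livers and 3 of 15 in HFD against BD livers, and none was at 0 in any diet. Stellate cell markers summed to 570.5 to 982 CPM in MCD, 401 to 565 CPM in HFD and 327 to 425 CPM in BD livers, with 8 of 10 higher in MCD against BD livers. Cholangiocyte markers summed to 105 to 274 CPM in MCD, 77.5 to 215 CPM in HFD and 84.8 to 118 CPM in BD livers, and HFD replicate 2 again had the highest HFD value, against at most 106 CPM in the other HFD libraries. Of 11 hepatocyte markers 4 fell in MCD against BD livers (median log2 difference -0.37) and 3 in HFD against BD livers (median -0.22). Endothelial markers summed to 449.5 to 524 CPM in MCD, 398 to 470.1 CPM in HFD and 398 to 507 CPM in BD livers. Of 9 endothelial markers 3 rose and 0 fell in MCD against BD livers, and 0 were called in HFD against BD livers. Of 13 cell cycle genes tested, 12 rose in MCD and 1 in HFD against BD livers. Over all genes 12.8% rose and 8.64% fell in MCD against BD, and 3.65% rose and 3.27% fell in HFD against BD. In whole liver, more cells of a type and more RNA per cell cannot be told apart, and the part of these markers in the change of any member was not tested.

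HFD replicate 2 decided much of the comparison of MCD with HFD. Beside the highest of the other 4 HFD libraries it was at 1.99 times their level for Nqo1, 1.74 times for Srxn1, 1.59 times for Gclc, 1.49 times for Gss and 1.18 times for Hmox1. For Gclm the ratio was 1.06, and for Gsr, Txnrd1 and Nfe2l2 it was 0.968, 0.956 and 0.938, so it was not high for all members. Without it, the HFD mean became 4.88 ± 0.877 CPM for Nqo1, 53.1 ± 8.17 CPM for Srxn1, 431 ± 22.5 CPM for Gclc and 62.8 ± 1.98 CPM for Gss (SD, n = 4).

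Leaving that library out, 5 of the 9 genes were higher in MCD than in HFD livers, where 6.80% of the 12340 genes then tested were higher and 3.31% lower. They were Nqo1 (log2 fold change 1.34, adjusted p = 7.27e-04), Srxn1 (0.93, adjusted p = 0.00307), Gss (0.73, adjusted p = 0.00113), Gclc (0.55, adjusted p = 0.00884) and Hmox1 (0.47, adjusted p = 0.0190). In HFD against BD livers 3 genes fell without it, where 2.57% of all genes fell and 2.74% rose: Gsr, Nqo1 by 0.87 (adjusted p = 0.0191) and Gclc by 0.43 (adjusted p = 0.0461). In MCD against BD livers the same 4 genes rose without it as with it (13.9% of all genes rose and 7.74% fell). HFD replicate 2 was singled out after its values were seen, high levels of several of these genes among them. Leaving it out also narrows the HFD spread of those genes. The adjusted p without it are therefore a description and no independent support.

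**Figure D3:**
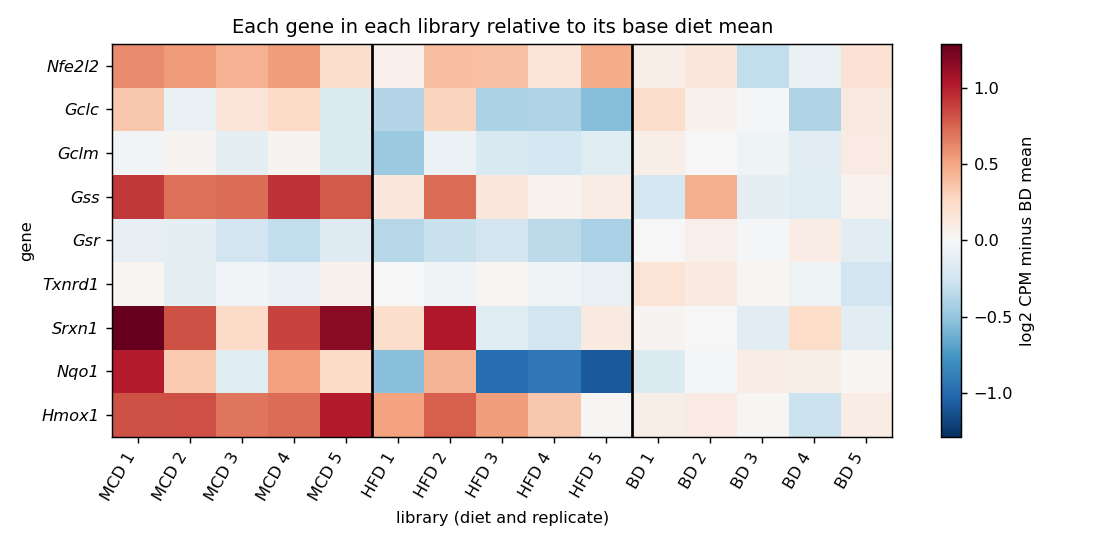
Log2 CPM of each gene in each library minus the mean of the 5 BD libraries (colour scale), with libraries in columns by diet. The column of HFD replicate 2 is red (above BD) for Srxn1, Gss, Hmox1, Nqo1, Nfe2l2 and Gclc. Nqo1 is blue (below BD) in the other HFD columns and in MCD replicate 3.

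Of 12 partners and regulators of NRF2, 2 rose and 1 fell in MCD against BD livers, with a median log2 difference of 0.08. That share is near the 21.4% of all genes called there. Maff, a small MAF partner, rose by 1.92 ± 0.28 (SE, adjusted p = 1.24e-04), at 9.81 ± 3.08 CPM in MCD, 4.67 ± 1.29 CPM in HFD and 2.30 ± 1.19 CPM in BD livers, and was also higher in MCD than in HFD livers by 1.04 ± 0.26 (adjusted p = 0.0371). Mafk, another small MAF, rose in MCD against BD livers by 0.80 ± 0.22 (adjusted p = 0.0135), with 24.5 ± 4.13 CPM in MCD, 16.6 ± 7.09 CPM in HFD and 14.3 ± 2.02 CPM in BD livers. In MCD against HFD livers the log2 difference of Mafk was 0.54 (adjusted p = 0.162). Without HFD replicate 2 it was 0.78 (adjusted p = 0.0159). Keap1, the inhibitor of NRF2, stood at 51.7 ± 6.95 CPM in MCD, 50.9 ± 10.8 CPM in HFD and 56.6 ± 12.7 CPM in BD livers, with adjusted p of 0.609 (MCD against BD) and 0.685 (HFD against BD).

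Of 26 other NRF2 targets tested, 8 fell in HFD against BD livers, with a median log2 difference of -0.49, and 5 were higher in MCD than in HFD livers, with a median of 0.34. In MCD against BD livers 1 rose and 2 fell, with a median of -0.06. Without HFD replicate 2 the counts were 12 lower in HFD against BD (median -0.61), 13 higher in MCD against HFD (median 0.48), and 2 higher and 4 lower in MCD against BD. Of all genes 3.27% fell in HFD against BD and 2.22% were higher in MCD than in HFD. Without HFD replicate 2 these shares were 2.57% and 6.80%. In MCD against BD 21.4% of all genes were called with every library in the fit. Gsta4, an alpha class glutathione transferase, fell in HFD against BD livers by 1.95 ± 0.17 (adjusted p = 1.51e-06), with 51.1 ± 11.9 CPM in MCD, 19.4 ± 4.94 CPM in HFD and 75.2 ± 7.33 CPM in BD livers. Gsta4 also fell in MCD against BD livers, by 0.56 ± 0.16 (adjusted p = 0.0201). It was higher in MCD than in HFD livers by 1.40 ± 0.17 (adjusted p = 0.00119). Gstm3, a mu class transferase, fell in HFD against BD livers by 1.82 ± 0.28 (adjusted p = 7.89e-04), and averaged 59.6 ± 16.9 CPM in MCD, 20.9 ± 5.91 CPM in HFD and 73.6 ± 30.8 CPM in BD livers. Transferases have near-identical copies whose shared reads entered no gene, so their levels are uncertain.

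Of 7 genes of cysteine supply and use tested, 4 fell in MCD and 3 in HFD against BD livers, where 8.64% and 3.27% of all genes fell. The median log2 differences of the 7 were -0.44 and -0.53. The genes called on both diets were Cth, Cbs and Cdo1, the last of which encodes cysteine dioxygenase and consumes cysteine (adjusted p = 0.00380 in MCD and 0.00261 in HFD). In MCD Slc3a1, a subunit of a cystine carrier, fell as well (adjusted p = 5.48e-04). Cth, which makes cysteine from cystathionine, stood at 226 ± 32.6 CPM in MCD, 226 ± 37.4 CPM in HFD and 640.2 ± 108.5 CPM in BD livers, and fell by 1.51 ± 0.14 in MCD against BD (adjusted p = 1.35e-06) and by 1.51 ± 0.14 in HFD against BD (adjusted p = 1.51e-06). Cbs, the step before it, fell by 0.84 ± 0.12 in MCD against BD (adjusted p = 1.25e-04), at 413 ± 63.6 CPM in MCD, 501 ± 70.6 CPM in HFD and 739 ± 78.6 CPM in BD livers. Slc7a11, the cystine carrier, averaged 0.375 CPM in MCD, 0.194 CPM in HFD and 0.0569 CPM in BD livers, too low to be tested.

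The enzymes that use or break down glutathione changed in both directions in MCD against BD livers. There 12.8% of all genes rose and 8.64% fell, 21.4% in all, and in HFD against BD 6.92% were called. Among glutathione peroxidases and glyoxalases 2 of 9 rose and 2 fell (median 0.16). Gpx7 rose by 1.61 ± 0.35 (adjusted p = 0.00242) at a low level, with 2.78 ± 0.506 CPM in MCD, 1.24 ± 0.558 CPM in HFD and 1.01 ± 0.760 CPM in BD livers, and Gpx3, the secreted peroxidase, by 0.85 ± 0.20 (adjusted p = 0.00389). Among genes of breakdown and export 2 of 12 rose and 2 fell in MCD against BD (median -0.11), and 1 fell in HFD against BD (median 0.10). Ggt6, of the gamma-glutamyltransferase family, fell by 1.14 ± 0.17 in MCD against BD (adjusted p = 1.72e-04), with 10.9 ± 1.31 CPM in MCD, 12.0 ± 2.15 CPM in HFD and 24.3 ± 6.05 CPM in BD livers. Abcc1, an exporter of glutathione conjugates, rose in MCD against BD livers by 0.85 ± 0.17 (adjusted p = 0.00139).

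In the thioredoxin and peroxiredoxin system 1 of 21 rose (Msrb2, by 0.48 ± 0.16, adjusted p = 0.0445) and 1 fell (Txn2, by 0.27 ± 0.09, adjusted p = 0.0415) in MCD against BD livers, with a median of 0.06. For this list and those that follow, 21.4% of all genes were called in MCD against BD and 6.92% in HFD against BD. The call of Txn2 was lost without HFD replicate 2 (adjusted p = 0.0688). Of 9 genes of NADPH supply 1 rose and 1 fell in MCD against BD (median 0.22). Idh2, mitochondrial isocitrate dehydrogenase, was 178 ± 17.2 CPM in MCD, 97.6 ± 32.3 CPM in HFD and 124 ± 13.8 CPM in BD livers and was higher in MCD than in HFD by 0.87 ± 0.16 (adjusted p = 0.0117). In HFD against BD livers the log2 difference of Idh2 was -0.34 (adjusted p = 0.252). Without HFD replicate 2 it was -0.55 (adjusted p = 0.00909). Its cytosolic counterpart Idh1 fell in MCD against BD by 0.33 ± 0.11 (adjusted p = 0.0300). Of 9 other antioxidant enzymes 2 rose and 1 fell in MCD against BD (median -0.14), and 3 fell in HFD against BD (median -0.21), of which none remained called by edgeR without HFD replicate 2. Sod3, extracellular superoxide dismutase, rose in MCD against BD by 0.87 ± 0.15 (adjusted p = 4.30e-04), and Cat, catalase, fell by 0.39 ± 0.08 (adjusted p = 0.00160). Around Hmox1, edgeR called 0 of 14 genes of haem synthesis, haem binding and bilirubin in each of the 3 comparisons (0, 1 and 2 at an unadjusted p under 0.05 for MCD against BD, HFD against BD and MCD against HFD, 0, 1 and 0 by DESeq2 and 0 by limma-voom). Without HFD replicate 2, 1 of the 14 was lower in HFD against BD and 1 was higher in MCD against HFD livers.

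**Figure D4:**
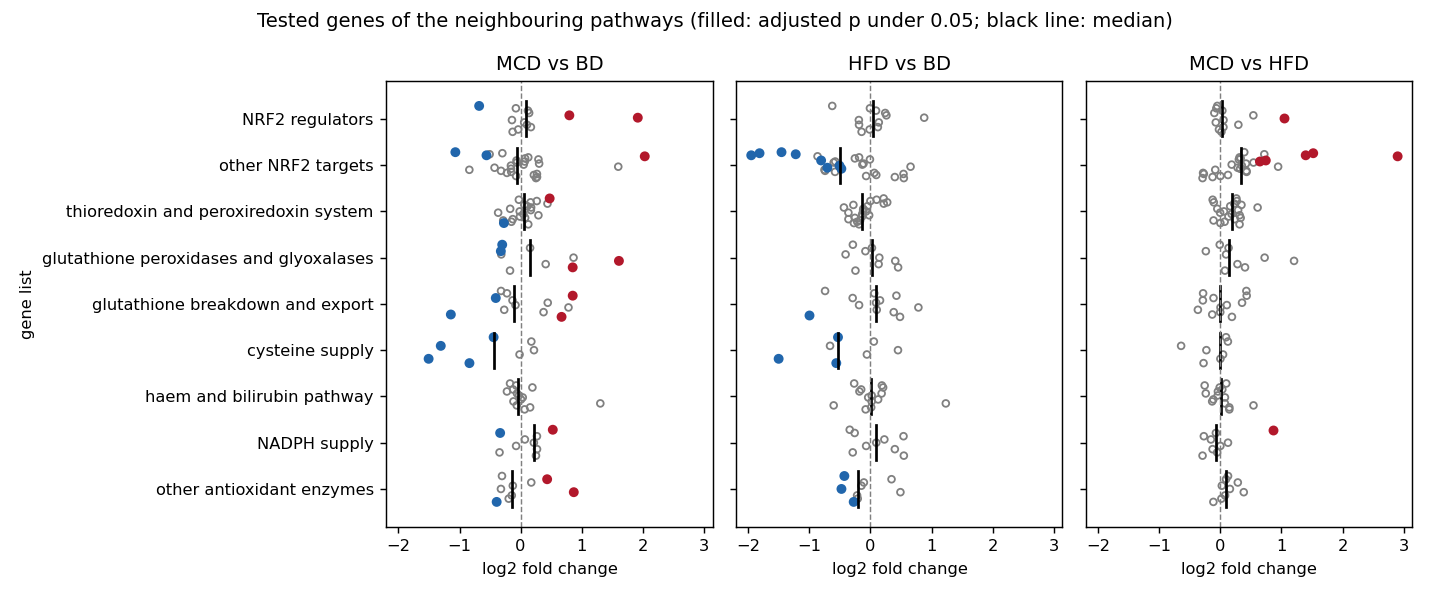
Log2 fold change (horizontal axis) of the tested genes of 9 neighbouring gene lists, with MCD against BD, HFD against BD and MCD against HFD in 3 panels, filled red (higher) or blue (lower) where the adjusted p was under 0.05, and the list median as a black line. Of the other NRF2 targets 8 are blue in HFD against BD, and 5 are red in MCD against HFD.

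Genes whose pattern over the 15 libraries was most like each called member were found by the mean absolute difference in centred log2 CPM, among 9038 genes with at least 5 CPM on average. This is a description of likeness with no test, and the libraries of a diet share that diet. Nearest to Nfe2l2 were March5 (0.0863) and Mpp6 (0.0940), nearest to Gss were Tpm1 (0.102) and Abcg1 (0.115), and nearest to Gsr were Znrf1 (0.0621) and Vps28 (0.0627). Nearest to Hmox1 were Lgmn (0.0883), a lysosomal protease, and C1qb (0.0956), a complement subunit made by macrophages. C1qb averaged 70.7 ± 6.99 CPM in MCD, 56.9 ± 11.7 CPM in HFD and 38.1 ± 2.43 CPM in BD livers (SD, n = 5). Nearest to Srxn1 were Pkm (0.139), pyruvate kinase M, and Tmem43 (0.141). For scale, the mean absolute deviation of the members from their own mean was 0.211 for Nfe2l2, 0.375 for Gss, 0.133 for Gsr, 0.341 for Hmox1 and 0.451 for Srxn1 on the same scale.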

How the data were processed

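The 15 mouse liver libraries of polyA RNA (5 each of MCD, HFD and BD) were sequenced by the submitters with a kit that keeps strand. Raw read counts by gene symbol were deposited by the authors, with a separate file for every library. The submitters' processing notes name GRCm38/mm10 and the tools HTSeq, TopHat2 (2.0.13), Trimmomatic and DESeq2. The sources used here do not give the annotation, counting mode or strand setting, so overlapping and antisense genes are uncertain. Rows that name no gene entered neither library sizes nor tests. Reads outside genes were 12.7% to 17.0% and ambiguous reads 0.567% to 0.841% of uniquely placed reads. From the counts, edgeR 4.0.16 in R 4.3.3 (TMM factors, filterByExpr with minimum count 10 and minimum total 15, robust quasi-likelihood fit over all 15 libraries, two-sided F test) gave log2 fold changes, their SE (fold change over the square root of F) and p-values adjusted by Benjamini-Hochberg. A total of 3 counts corresponded to 0.130 to 0.810 CPM.

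Replicate numbers follow the order of deposit and pair nothing. Replicate pairs differed beyond sampling noise (30 pairs, with chi-square divided by its degrees of freedom at 6.89 to 61.1). On simulated counts, of 50 genes changed 1.5-fold, 24, 17 and 18 were recovered for MCD against BD, HFD against BD and MCD against HFD (12089, 12095 and 12088 genes), and of 50 changed 2-fold 44, 46 and 44. The members and gene lists were chosen with earlier results of these data known. Named genes are the 9 members, the first 2 past the threshold by p in each pathway list, and the 2 genes nearest in pattern to each called member. Keap1, C1qb and Slc7a11 were given values after theirs were seen, and the motifs were chosen likewise. Alternatives were DESeq2 1.42.0, limma-voom (limma 3.58.1), other thresholds, filters, scaling factors and fits, and each library left out in turn. A covariate for non-unique alignments and a fit without HFD replicate 2 and MCD replicate 3 together were added after seeing the data, as were the list counts without HFD replicate 2.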

Additional observations from a re-analysis of the deposited data

Results flagged for a closer look

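Within the 5 libraries of a diet, a value was marked when its gap to the nearest other library was a larger share of the group's range than Dixon's 95% limit, which chance exceeds in about 1 of 20 groups. Of 30 groups checked (9 genes and the Gclm to Gclc ratio in 3 diets) 5 were marked, and 4 of these are the same library, HFD replicate 2. It had 711 CPM for Gclc (398 to 448 in the other 4 HFD libraries), 96.0 CPM for Gss (60.2 to 64.5), 12.3 CPM for Nqo1 (4.18 to 6.16) and 109 CPM for Srxn1 (45.0 to 62.4). The other was BD replicate 4, with 18.6 CPM for Hmox1 against 22.9 to 24.4 CPM in the other 4 BD libraries. Its sum of macrophage markers, 277 CPM, was also the lowest of the BD libraries. BD replicate 5, however, had the highest sum of that diet, 490 CPM, with Hmox1 at 24.2 CPM, below the 24.4 CPM of BD replicate 2. The part of these cells was not tested.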

How the results depend on the processing

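The count of members called in MCD against BD was 4 or 5 under all 26 alternatives, and each of Nfe2l2, Gss, Hmox1 and Srxn1 kept its call in all 23 alternatives run for single genes. The count in HFD against BD, 2 in the report, was 1 by limma-voom, 1 with only those diets in the fit and 0 at a threshold of 0.01 (4 members had an unadjusted p under 0.05), and 1 to 3 with 1 library left out. The count in MCD against HFD, 1 in the report, was 2 by DESeq2, by limma-voom, without TMM factors and at a threshold of 0.10, 0 at a threshold of 0.01 (5 at an unadjusted p under 0.05), 0 with the covariate for non-unique alignments, 5 without HFD replicate 2 and MCD replicate 3 together, and 0 to 5 with 1 library left out. Over all genes, that comparison had 384 calls, 701 by DESeq2, and 74 (without HFD replicate 4) to 1248 (without HFD replicate 2) with 1 library left out. The causes were not tested. Values near 0 changed sign: Txnrd1 in MCD against BD (0.11 without TMM factors, 0.013 with upper quartile factors, -0.095 to 0.028 with 1 library left out), in HFD against BD (0.027 without TMM factors, -0.094 to 0.018) and in MCD against HFD (-0.00038 by limma-voom, -0.060 with the covariate, -0.016 to 0.024), Gclm in MCD against BD (0.086 without TMM factors), Gclc in MCD against BD (-0.033 with the covariate) and the Gclm to Gclc log2 ratio in HFD against BD (-0.022 to 0.165 with 1 library left out). Of 621 alternative values of the 27 member fold changes, 572 kept direction and side of the threshold, 17 lost a call, 17 gained one and 15 changed sign. Depth limits Nqo1 most, with 19 to 31 counts in 3 libraries. No paired analysis was possible because the replicate numbers come from the order of deposit.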
